A study of Mus musculus with 12 samples.

Results

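NIH3T3 fibroblasts that expressed Yap, labelled as still proliferating at high density, were compared with control fibroblasts growing sparsely. The aim was to find which density-dependent genes the Yap cells held at the level of sparse cells. The comparison used 4 of the 12 arrays of the series, 2 of Yap cells and 2 of sparse control cells, assigned by sample title. NIH3T3 is an established line of mouse embryo fibroblasts that stops dividing when its cells touch on all sides. By their labels the Yap cells expressed Yap and were proliferating when collected. Their density was a little beyond that at which normal cells are confluent, which is called high density here. The control cells carried a control virus and were collected at complete confluency (2 arrays) or at 30% confluency (2 arrays), called confluent control and sparse control here. Cells expressing Tead2-VP16, a fusion of the DNA-binding factor Tead2 with the viral activation domain VP16, were also labelled as proliferating at high density (2 arrays). They served for 1 further contrast. Yap cells and sparse control differed in both the expressed protein and the density, so the effects of the 2 cannot be told apart in this comparison. Against confluent control the 2 effects cannot be told apart either, as high density and complete confluency are different labels. Nor can a change in the share of cells of a kind be told apart from a change in RNA per cell. No label tells whether a group's 2 arrays hold RNA of separate cultures, and every p-value rests only on how far such arrays differed.

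Yap is a transcriptional coactivator with no DNA-binding domain of its own, and Tead factors bring it to DNA. In crowded cells the Hippo kinase cascade phosphorylates Yap and keeps it out of the nucleus, and Tead target genes such as Ccn2 then fall. Fibroblasts that become confluent leave the cell cycle, lower the genes of DNA replication and mitosis and raise genes of quiescence and of the extracellular matrix.

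Values are log2 intensities of 1 probe set per gene for 18193 genes, and a difference is the first group minus the second on that log2 scale. Calls came from limma at a threshold of 0.05 on p-values adjusted by the Benjamini-Hochberg method over all genes, and each adjusted p given is limma's. The arrays of a group correlated with r between 0.9976 and 0.9986. Of 12 fibroblast markers, 11 lay above the median gene (6.87) in both Yap and sparse control cells, against 1 to 3 of the markers of adipocytes, macrophages, epithelium, endothelium and muscle. The transferrin receptor 3′ minus 5′ control, a sign of RNA quality, was 1.31 ± 0.07 in Yap cells, 1.30 ± 0.19 in confluent control and 0.98 ± 0.05 in sparse control (log2, SD, n = 2 each). The actin control was 0.122 in Yap cells, 0.234 in confluent control and 0.081 in sparse control, and the Gapdh control was -0.258 in Yap cells, -0.28 in confluent control and -0.231 in sparse control. The part of RNA quality in the differences from sparse control was not tested. Centring each array on its median would lower Yap minus sparse control by 0.09 and confluent minus sparse control by 0.13, so differences of that size have no settled direction. Centring would also turn the share of higher genes among those called to 40% in place of 52.4% for Yap minus sparse control.

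Yap1 itself was not raised on the array. Its probe set with the higher level read 9.62 and 9.69 in Yap cells, 9.95 and 9.98 in confluent control, and 9.79 and 9.83 in sparse control. The Yap arrays were the lowest of the 3 groups, with a difference of -0.16 from sparse control (adjusted p = 0.0369). That call was lost without any 1 of the 4 arrays compared (adjusted p between 0.0541 and 0.198). The other Yap1 probe set had a difference of -0.19 between Yap cells and sparse control and was not called (adjusted p = 0.2101 over all probe sets). The position of these probes relative to the Yap construct is not given in the sources used here, so they do not check the transgene. Tead2 read 9.0 and 9.10 in Yap cells against 9.63 and 9.62 in sparse control (difference -0.57, adjusted p = 5.21e-05).

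Yap cells at high density differed widely from sparse control. Of 18193 genes, 4047 were higher (22.2%) and 3669 lower (20.2%), 42.4% in all, and the arrays of both groups did not overlap for 66.6%. Changes of 2-fold or more were seen in 621 genes that rose (3.41%) and 583 that fell (3.2%). The shares of 22.2% and 20.2% are the reference for every list count against sparse control below.

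Abi3bp, a matrix-associated protein, rose the most. It read 7.65 on both Yap arrays, 9.26 and 9.16 in confluent control, and 3.21 and 2.77 in sparse control (difference 4.66 ± 0.12, SE, adjusted p = 3.19e-09). Dcn, the small proteoglycan decorin, read 11.85 and 11.98 in Yap cells, 13.36 and 13.34 in confluent control, and 7.57 and 7.53 in sparse control (difference 4.36 ± 0.06, adjusted p = 5.77e-10). For both genes the Yap arrays stood far above the sparse arrays and below the confluent arrays, with no overlap. Sned1 encodes a glycoprotein of the matrix. Yap cells held 15.6-fold more of its signal than sparse control, and confluent control 78.9-fold more. Bmf, a pro-apoptotic Bcl-2 family member, rose by 4.05, and C1s1, which encodes a protease of the classical complement pathway, by 3.56. Mycn rose by 3.81 on its brightest probe set, whereas neither of the remaining 2 was called (0.03 and -0.06). The further large rises were Aldh3a1 (3.27) and Aldh6a1 (2.99), which encode aldehyde dehydrogenases, the matrix protein asporin (Aspn, 3.05), tetranectin (Clec3b, 3.16), the chemokine Ccl9 (3.06) and Slurp1 (2.99), a small secreted protein.

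Bub1, a kinase of the spindle checkpoint, fell the most. It read 7.35 and 7.41 in Yap cells, 7.45 and 7.48 in confluent control, and 10.75 and 10.74 in sparse control (difference -3.36 ± 0.05, SE, adjusted p = 7.86e-10). Tk1, the thymidine kinase of S phase, read 7.53 and 7.57 in Yap cells, 7.46 and 7.6 in confluent control, and 10.76 and 10.80 in sparse control (difference -3.23 ± 0.06, adjusted p = 9.44e-10). The Yap arrays of both genes lay at the confluent arrays and far below the sparse ones. The other large falls ran from -2.96 to -2.87 and included Kif20a, a kinesin of cytokinesis, Cdca8 and Birc5, which belong to the chromosomal passenger complex, Ect2, which starts cleavage furrow formation, Ccna2 (cyclin A2), and the kinetochore genes Cenph and Ska1. Pbk, a mitotic kinase, Shcbp1 and Ddias completed the 12 largest falls under the naming rule given with the processing.

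To ask where Yap cells stood along the density response, density-dependent genes were taken as those called with at least a 2-fold difference between confluent and sparse control. Of all genes, 48.9% were called in that contrast and 1994 passed both conditions, 1050 higher (5.77% of all genes) and 944 lower (5.19%) in confluent control. Confluent and sparse arrays did not overlap for 70.3% of genes, and Yap and confluent arrays for 61.1%. A gene was placed at the sparse level where the 95% interval of Yap minus sparse control lay inside ±0.5, and at the confluent level where that of Yap minus confluent control did. These 2 classes took precedence, also for genes called against a control. A gene at neither level was placed between where Yap cells were called against both controls with a mean between theirs. The rest lay past the sparse level, past the confluent level, or unresolved. All 3 contrasts share arrays, so these counts are a description with no test.

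Few density-dependent genes were held at the sparse level. They numbered 64 of 1994 (3.21%), against 852 (42.7%) at the confluent level and 958 (48%) between. Of the 852 genes, 316 were nonetheless called against confluent control, with the interval of the difference inside ±0.5. Past the sparse level were 6 genes and past the confluent level 28, and 86 were unresolved (4.31%). Past the sparse level lay 0.301% and past the confluent level 1.4%. Over all 18193 genes, most of which did not depend on density, the interval of Yap minus sparse control lay inside ±0.5 for 63.1%, and that of Yap minus confluent control for 79.4%. Among genes that rose with density, 30 were at the sparse level, 370 at the confluent level and 575 between. The median difference of those 1050 genes from sparse control was 1.01 in Yap cells and 1.37 in confluent control. Among genes that fell with density, 34 were at the sparse level, 482 at the confluent level and 383 between. Their medians were -1.11 in Yap cells and -1.40 in confluent control.

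The count at the sparse level depended on the ±0.5 band. It was 28 genes with a band of 0.3 and 584 genes with a band of 1. Plcg1, an enzyme of inositol lipid signalling, was the last gene inside, with the far bound of its interval at 0.49, and the centrosomal gene Cep170 (0.50) was the first outside. With a density step of 4-fold in place of 2-fold, 7 of 392 genes were at the sparse level.

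**Figure D1:**
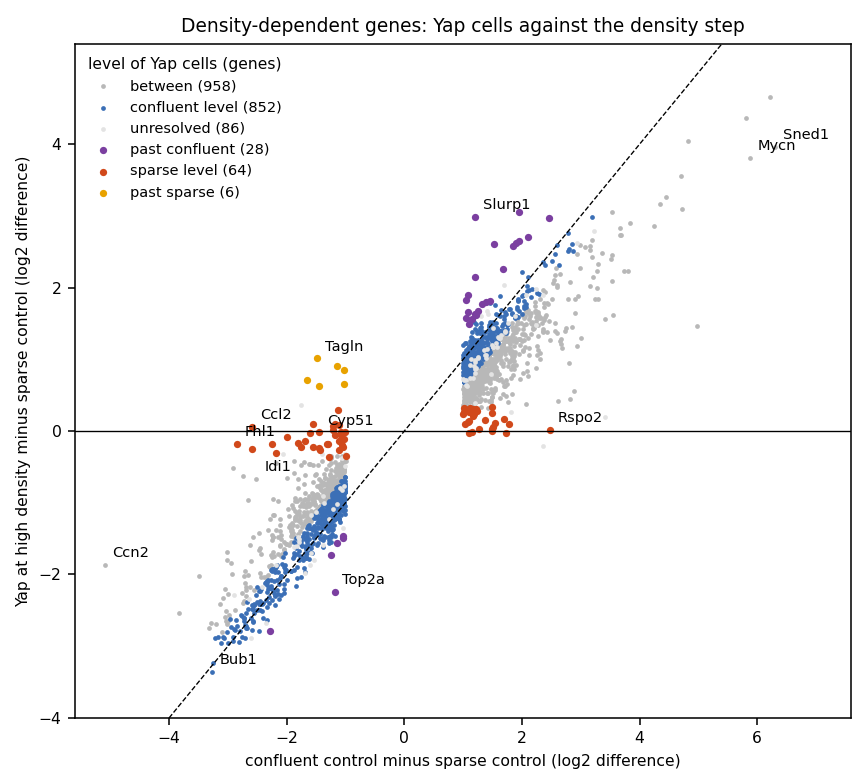
Each point is 1 of the 1994 density-dependent genes, with confluent minus sparse control on the horizontal axis and Yap minus sparse control on the vertical axis (both log2 differences), coloured by the level of the Yap cells. The dashed line marks equal differences and the horizontal line marks the sparse level. Most points lie along or between these lines, and the 64 sparse-level genes lie at the horizontal line, Rspo2 and Fhl1 among the farthest out.

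Genes that fell with density and that Yap cells held at the sparse level encoded a LIM protein, chemokines, transcriptional regulators and enzymes of sterol synthesis. Fhl1, a LIM-only protein linked to the actin cytoskeleton, read 8.94 and 8.93 in Yap cells, 6.27 and 6.25 in confluent control, and 9.15 and 9.07 in sparse control. The confluent arrays were far below the rest, and Yap minus sparse control was -0.17 ± 0.06 (SE, adjusted p = 0.0532), beside a density step of -2.85. Ccl2, a chemokine that draws monocytes, read 8.98 and 9.02 in Yap cells, 6.54 and 6.17 in confluent control, and 8.88 and 9.01 in sparse control. Its Yap and sparse arrays overlapped (difference 0.05, adjusted p = 0.743), and Yap cells were 6.26-fold above confluent control. Ccl7, a related chemokine, read 8.67 and 8.55 in Yap cells, 6.50 and 6.58 in confluent control, and 8.76 and 8.82 in sparse control.

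Id1, an inhibitor of basic helix-loop-helix factors, read 10.38 and 10.36 in Yap cells, 8.04 and 8.03 in confluent control, and 10.61 and 10.63 in sparse control. It was called lower than in sparse control by a small amount (-0.25, adjusted p = 0.00843) against a density step of -2.58, and without the second Yap array the call was just lost (adjusted p = 0.0507). Timp1, an inhibitor of matrix metalloproteases, read 11.13 and 11.06 in Yap cells, 9.46 and 9.44 in confluent control, and 11.21 and 11.30 in sparse control (difference -0.16, adjusted p = 0.0484). That call was lost without either Yap array or the second sparse array (adjusted p between 0.0675 and 0.242). Anxa8, a calcium-dependent membrane-binding annexin, differed from sparse control by -0.08 (density step -2.0) and Gask1b by -0.31 (density step -2.19). Across the class, 29 of 64 genes were called against sparse control. The rule that formed the class fixes that its members differ from confluent control, so nothing is read from their calls there. Also in the class, and named after their values were seen, were the growth factors Fgf2 (Yap minus sparse control -0.06, density step -1.07) and Bdnf (-0.26, density step -1.12), the phosphatase Dusp6 (-0.13, density step -1.68), which removes phosphate from ERK, and the kinase Nuak2 (0.08, density step -1.11).

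Of the genes at the sparse level that rose with density in control cells, the largest density step was that of Rspo2, a secreted amplifier of Wnt signalling. Rspo2 read 7.73 and 7.64 in Yap cells, 10.12 and 10.17 in confluent control, and 7.74 and 7.61 in sparse control. The Yap and sparse arrays overlapped (difference 0.01, adjusted p = 0.918), and Yap cells were 5.5-fold below confluent control. Adamts1, a secreted protease that cleaves proteoglycans, read 9.40 and 9.48 in Yap cells, 11.17 and 11.08 in confluent control, and 9.37 and 9.32 in sparse control. Ldb2, an adaptor that binds LIM domains, read 8.11 and 8.16 in Yap cells, 9.88 and 9.90 in confluent control, and 8.16 and 8.17 in sparse control. For each of these 3 genes the confluent arrays stood apart above the other 4. Lmo7, which has a LIM domain, Lbh, a transcriptional regulator of development, and Cacna1g, a T-type calcium channel subunit, differed from sparse control by 0.06, 0.03 and 0.15 with density steps of 1.51, 1.49 and 1.36. Mrps6, a mitochondrial ribosomal protein, and Csgalnact1, an enzyme of chondroitin sulfate synthesis, were called slightly higher than in sparse control, by 0.17 and 0.34 (adjusted p = 0.0367 and 0.00125). The call for Mrps6 was lost without either Yap array or the second sparse array (adjusted p between 0.0936 and 0.208).

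**Figure D2:**
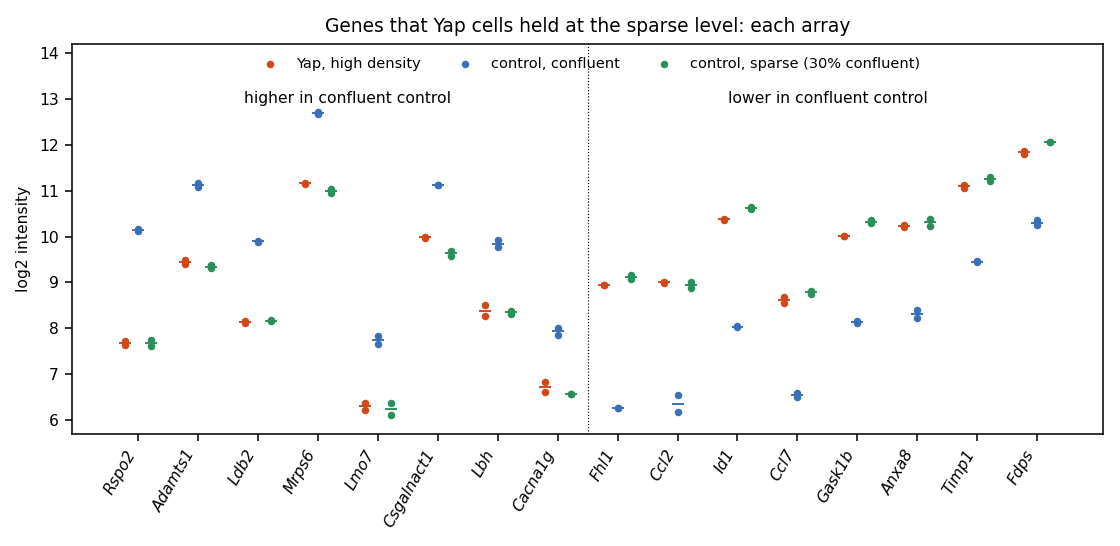
Log2 intensity of the 16 named sparse-level genes on each array of Yap cells, confluent control and sparse control (points, with a line at the mean of 2 arrays). For the 8 genes on the left the confluent arrays lie above the others, for the 8 on the right below them, and the Yap arrays lie beside the sparse arrays.

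Among the lists with at least 9 density-dependent genes, cholesterol synthesis had the largest share of them at the sparse level. Of its 20 measured genes, 13 depended on density, and 10 of these were at the sparse level, against 64 of 1994 over all genes. They were Fdps, Msmo1, Cyp51, Lss, Fdft1, Sqle, Insig1, Mvd, Nsdhl and Mvk. The remaining 3 were Idi1 (between) and Stard4 and Tm7sf2 (unresolved). The median of the 20 genes was -0.08 in Yap minus sparse control, -1.10 in confluent minus sparse control and 0.99 in Yap minus confluent control. In the last contrast 18 of 20 were called higher in Yap cells and 0 lower. Over all genes 2123 were higher (11.7%) and 2633 lower (14.5%), 26.1% together. The 10 members at the sparse level fell with density, so the class rule fixes that they lie above confluent control. Nothing is read from their calls in that contrast. Without the second Yap array, 1395 genes were called higher there. Against sparse control 5 of 20 were higher and 8 lower, all 8 by less than 2-fold, and 4 or 5 were lower without either Yap array or the second sparse array. Without the first Yap array, 3 were higher.

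Fdps, which makes farnesyl diphosphate, read 11.80 and 11.86 in Yap cells, 10.24 and 10.35 in confluent control, and 12.05 on both sparse arrays (difference -0.22 from sparse control, adjusted p = 0.0113). Without the first Yap array it was not called (adjusted p = 0.0776), nor with the mean of its probe sets (-0.11, adjusted p = 0.234). Cyp51, a demethylase of the sterol pathway, averaged 11.58 ± 0.02 in Yap cells, 10.15 ± 0.01 in confluent control and 11.60 ± 0.03 in sparse control (SD, n = 2 each). Idi1, an isomerase upstream of Fdps, read 11.12 and 11.13 in Yap cells, 9.21 and 9.34 in confluent control, and 11.77 and 11.82 in sparse control. Its fall from sparse control (-0.67, adjusted p = 1.71e-05) was the largest of the list, against a density step of -2.52. Fdft1, the squalene synthase, differed by -0.37 from sparse control and by 0.91 from confluent control. Hsd17b7, which acts late in the pathway, differed by 0.32 from sparse control and by 0.87 from confluent control. Insig1, which restrains the factor Srebp, was 0.30 above sparse control (adjusted p = 0.00416). Tm7sf2, a sterol reductase, went against the list and was 3.18-fold higher in Yap cells than in sparse control, with 7.69 and 7.74 in Yap cells, 7.32 and 7.57 in confluent control, and 6.2 and 5.89 in sparse control.

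The promoters of this list shared a CCAAT box (CCAAT, either strand), the letters bound by the factor NF-Y. All 16 members with a RefSeq promoter entry held it in the 250 bases before a gene start, where a match at any 1 of a gene's listed starts counts. Dhcr7 held it at 1 of 3 starts and Pmvk at 1 of 2. The share over all 14452 measured genes with an entry was 39.36%. It was 50% of sparse-level genes (21 of 42), 52.14% of confluent-level genes and 84.21% of the unfolded protein response list. The sterol element TCACNCCAC was found in 1 of 16 members, against 1.27% of all. The promoters of Idi1 (chr13:8885356-8885605, plus strand) and Cyp51 (chr5:4104698-4104947, minus strand) are shown as a member between and a member at the sparse level, from RefSeq on GRCm38.p6, 5′ to 3′ along the gene, with CCAAT or its reverse complement in capitals.
Idi1: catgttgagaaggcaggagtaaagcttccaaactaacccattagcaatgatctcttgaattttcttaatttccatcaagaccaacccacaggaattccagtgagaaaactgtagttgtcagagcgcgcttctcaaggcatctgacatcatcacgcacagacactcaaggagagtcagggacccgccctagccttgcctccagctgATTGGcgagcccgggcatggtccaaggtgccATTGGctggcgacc
Cyp51: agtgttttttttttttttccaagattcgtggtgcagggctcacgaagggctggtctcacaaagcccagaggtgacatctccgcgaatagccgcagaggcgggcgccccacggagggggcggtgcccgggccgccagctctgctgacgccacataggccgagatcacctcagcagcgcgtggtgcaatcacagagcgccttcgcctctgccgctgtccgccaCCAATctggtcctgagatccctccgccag

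Known Yap/Tead targets were not held at the sparse level as a group. Of 22 measured targets, 7 were higher and 5 lower than in sparse control, beside 22.2% and 20.2% of all genes. Their median was 0.04 against -0.01 over all genes. Of the 7 that depended on density, 1 (Nuak2) was at the sparse level, 1 at the confluent level and 5 between. Ccn2, connective tissue growth factor, read 9.73 and 9.76 in Yap cells, 6.31 and 6.71 in confluent control, and 11.59 and 11.62 in sparse control. The 3 groups were far apart. Yap cells were 3.64-fold below sparse control (difference -1.86 ± 0.11, SE, adjusted p = 3.89e-07) and 9.39-fold above confluent control (adjusted p = 1.39e-07), so that 36.6% of the density step on the log2 scale was seen in Yap cells. Ankrd1, a nuclear ankyrin repeat protein, read 7.89 and 7.91 in Yap cells, 6.91 and 7.14 in confluent control, and 8.84 and 9.02 in sparse control (difference from sparse control -1.03, adjusted p = 8.21e-06).

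Ccn1, a matricellular relative of Ccn2, depended on the probe set. Its brightest probe set read 10.21 and 10.23 in Yap cells, 9.23 and 9.21 in confluent control, and 10.70 and 10.67 in sparse control (difference from sparse control -0.47, adjusted p = 5.74e-05), and a second was also at -0.47. The other 2 probe sets were higher in Yap cells than in sparse control, by 0.60 and 0.68, so that the mean of the 4 was 0.09. On these 2, Yap cells were also above confluent control, by 0.41 and 0.46. Other targets moved upward. F3, the tissue factor that starts blood coagulation, read 9.98 and 9.94 in Yap cells, 10.73 and 10.76 in confluent control, and 8.34 on both sparse arrays (difference from sparse control 1.62), and Ccdc80, a matrix protein, differed by 0.54. Among 25 Hippo components 5 were higher and 10 lower in Yap cells, among them Wwc1 (-1.25) and Wwc2 (-0.73), scaffolds of the kinase cascade, the Tead cofactor Vgll3 (-0.57) and Amotl2 (0.52), a protein that binds Yap.

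Of 15 Yap/Tead targets with a promoter entry, 6 held the Tead motif GGAATG on either strand in the same window (40%), against 13.43% of all 14452 promoters and 3 of 42 sparse-level genes (7.14%). The promoters of Ankrd1 (chr19:36119845-36120094, minus strand) and Ccn1 (chr3:145649986-145650235, minus strand) are shown because both lay between the controls on their brightest probe sets. GGAATG or its reverse complement is in capitals.
Ankrd1: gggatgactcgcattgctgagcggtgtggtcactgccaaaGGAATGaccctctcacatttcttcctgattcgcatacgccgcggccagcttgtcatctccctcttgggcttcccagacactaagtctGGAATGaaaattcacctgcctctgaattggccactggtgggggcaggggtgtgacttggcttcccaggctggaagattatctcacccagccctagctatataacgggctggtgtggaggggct
Ccn1: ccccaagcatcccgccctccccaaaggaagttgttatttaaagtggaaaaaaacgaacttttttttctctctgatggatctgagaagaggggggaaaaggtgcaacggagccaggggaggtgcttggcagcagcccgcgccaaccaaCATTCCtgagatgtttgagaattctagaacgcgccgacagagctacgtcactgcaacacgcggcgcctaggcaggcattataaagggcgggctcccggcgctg

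Genes of actin filaments and of their regulator SRF went past the sparse level in part. Of 36 measured, 16 were higher and 7 lower in Yap cells than in sparse control, with a median of 0.12, while the median of confluent minus sparse control was -0.33. With arrays centred on their medians, 12 were lower. Against confluent control 25 of 36 were higher and 1 lower, beside 11.7% and 14.5% of all genes. Tagln, an actin-binding protein of contractile cells also called transgelin, read 11.10 and 11.08 in Yap cells, 8.55 and 8.65 in confluent control, and 10.09 and 10.06 in sparse control. Acta2, smooth muscle actin, read 13.74 and 13.76 in Yap cells, 11.996 and 12.13 in confluent control, and 13.08 and 13.11 in sparse control. Among these 3 groups the Yap arrays were the highest for both genes and the confluent arrays the lowest. Tead2-VP16 cells at high density read 11.23 and 11.28 for Tagln and 14.07 and 14.05 for Acta2, above the Yap arrays, and Yap minus Tead2-VP16 cells was called for Acta2 (-0.31, adjusted p = 0.0321) and not for Tagln (-0.17, adjusted p = 0.1898). Yap minus sparse control was 1.01 for Tagln (adjusted p = 2.98e-07) and 0.65 for Acta2 (adjusted p = 1.23e-05).

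These were 2 of the 6 genes past the sparse level, and each of the 6 fell with density in control cells. Id2, a relative of Id1, read 10.87 and 10.73 in Yap cells, 8.75 on both confluent arrays, and 9.98 and 9.81 in sparse control (difference from sparse control 0.91). Pde4b, a phosphodiesterase of cyclic AMP, differed by 0.72 from sparse control with a density step of -1.65. The last were Mcf2l and Gm15867. Vcl and Csrp1 rose in Yap cells without depending on density. Vcl, vinculin of focal adhesions, read 12.52 and 12.56 in Yap cells, 11.27 on both confluent arrays, and 11.39 and 11.43 in sparse control (difference from sparse control 1.13). Csrp1, a LIM protein of actin bundles, rose by 1.0. Of the density-dependent actin genes, Mylk, the myosin light chain kinase, rose by 2.32 and was at the confluent level (2.64). Srf itself fell by 1.20, with a density step of -1.58, and is named after its value was seen.

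Of 32 actin and SRF genes with a promoter entry, 9 held a CArG box, the SRF site, on either strand (28.12%), against 1.43% of all, and 12 held GGAATG (37.5%). The promoters of Fhl1 (chrX:56779433-56779682, plus strand), held at the sparse level, and Vcl (chr14:20929148-20929397, plus strand), raised above both controls, are shown with the CArG box in capitals. Another listed start of Fhl1 had no CArG box and is not shown.
Fhl1: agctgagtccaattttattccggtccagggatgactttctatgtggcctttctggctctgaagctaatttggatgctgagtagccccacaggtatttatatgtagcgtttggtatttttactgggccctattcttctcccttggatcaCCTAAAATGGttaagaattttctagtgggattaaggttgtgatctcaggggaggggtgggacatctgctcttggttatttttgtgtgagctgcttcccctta
Vcl: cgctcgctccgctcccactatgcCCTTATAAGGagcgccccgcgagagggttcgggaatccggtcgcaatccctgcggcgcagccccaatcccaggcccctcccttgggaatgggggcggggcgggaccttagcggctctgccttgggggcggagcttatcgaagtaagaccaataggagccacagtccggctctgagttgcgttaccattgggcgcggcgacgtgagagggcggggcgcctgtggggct

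Genes of cell division in the Yap cells, which are labelled as proliferating, stood mostly at the confluent level. All 49 measured mitosis genes were called lower in Yap cells than in sparse control (median -2.49, confluent control -2.51). Of 48 that depended on density, 42 were at the confluent level, 3 between, 2 past the confluent level and 1 unresolved, and none was at the sparse level. The median level of the 49 genes was 7.55 and 7.70 on the Yap arrays, 7.52 and 7.57 in confluent control, and 10.47 and 10.39 in sparse control. Aurkb, the kinase of the chromosomal passenger complex, read 7.55 and 7.64 in Yap cells, 7.52 and 7.57 in confluent control, and 10.47 and 10.46 in sparse control. Ube2c, which works with the anaphase-promoting complex, fell by 2.73 (density step -2.95).

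The past-confluent members were Top2a, the topoisomerase of replicated chromosomes, and Mki67, the proliferation marker Ki-67. Top2a read 8.94 and 8.98 in Yap cells, 9.99 and 10.06 in confluent control, and 11.15 and 11.26 in sparse control. Mki67 read 7.49 and 7.70 in Yap cells, 8.09 and 8.12 in confluent control, and 10.37 and 10.39 in sparse control. Both were lowest in Yap cells among these 3 groups, while Tead2-VP16 cells at high density read 8.78 and 8.61 for Top2a and 7.45 and 7.42 for Mki67 (Yap minus Tead2-VP16 cells not called, adjusted p = 0.09628 and 0.4478). Yap minus confluent control was -1.06 for Top2a and -0.51 for Mki67. Calls in that contrast define the past-confluent class, so nothing is read from them. All 41 DNA replication genes were also lower than in sparse control (median -1.72, density step -2.09), with 24 of 40 density-dependent members at the confluent level and 15 between. Mcm3, a subunit of the replicative helicase, read 9.25 and 9.29 in Yap cells, 8.53 and 8.56 in confluent control, and 11.68 on both sparse arrays. Mcm6, another subunit, and Rrm1, a ribonucleotide reductase subunit, fell by 2.17 and 2.07 and were at the confluent level. Against confluent control 23 of the 41 were called higher in Yap cells and 3 lower, and of the mitosis genes 8 were higher and 3 lower. The shares over all genes in that contrast were 11.7% and 14.5%.

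Among 40 mitosis promoters, 17 held the CHR motif TTTGAA on either strand (42.5%), against 14.08% of all, and 30 held CCAAT (75%). Of 33 replication promoters, 5 held the E2F motif TTTNGCGC (15.15%), against 1.94% of all. The promoters of Ube2c (chr2:164769679-164769928, plus strand) and Mcm6 (chr1:128359706-128359955, minus strand) are shown as examples at the confluent level, with TTTGAA and CCAAT in capitals for Ube2c and TTTNGCGC for Mcm6, on either strand. Adjoining or overlapping matches run together in capitals.
Ube2c: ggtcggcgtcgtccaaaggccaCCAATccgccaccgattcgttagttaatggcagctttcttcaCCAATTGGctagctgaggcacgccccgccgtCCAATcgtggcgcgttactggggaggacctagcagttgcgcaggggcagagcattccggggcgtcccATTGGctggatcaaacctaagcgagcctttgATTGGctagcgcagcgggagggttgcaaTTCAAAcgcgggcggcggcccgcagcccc
Mcm6: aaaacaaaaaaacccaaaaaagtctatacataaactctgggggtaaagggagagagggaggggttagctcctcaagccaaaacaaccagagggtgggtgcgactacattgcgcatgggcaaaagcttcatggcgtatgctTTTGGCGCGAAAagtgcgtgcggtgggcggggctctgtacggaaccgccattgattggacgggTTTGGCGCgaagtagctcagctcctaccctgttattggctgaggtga

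Genes of the entry into S phase were more mixed. Of 26 G1 cyclins, E2F factors and CDK inhibitors, 16 were lower and 6 higher in Yap cells than in sparse control (median -0.42). E2f8, a repressor of the E2F family, fell by 2.40 in Yap cells and was at the confluent level (density step -2.40). Ccne2, cyclin E2, read 6.60 and 6.66 in Yap cells, 5.79 and 5.80 in confluent control, and 8.86 and 8.82 in sparse control, and so lay between. E2f7 also lay between (-1.42, density step -2.47), and Ccnd1, cyclin D1, fell by 0.84.

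Ribosome biogenesis and Myc genes fell less than in confluent control. All 35 were called lower in Yap cells than in sparse control, with a median of -0.95 beside -1.53 in confluent control. Of 29 that depended on density, 22 were between and 7 at the confluent level. Compared with confluent control, 30 of the 35 were called higher in Yap cells and 1 lower, beside 11.7% and 14.5% of all genes. Odc1, the first enzyme of polyamine synthesis, read 10.94 and 10.98 in Yap cells, 9.91 and 9.87 in confluent control, and 12.17 and 12.19 in sparse control. Nop16 and Nhp2, nucleolar proteins, fell by 1.48 each with density steps of -2.24 and -2.14. Cad, which starts pyrimidine synthesis, stood at the confluent level (-1.51, density step -1.67).

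**Figure D3:**
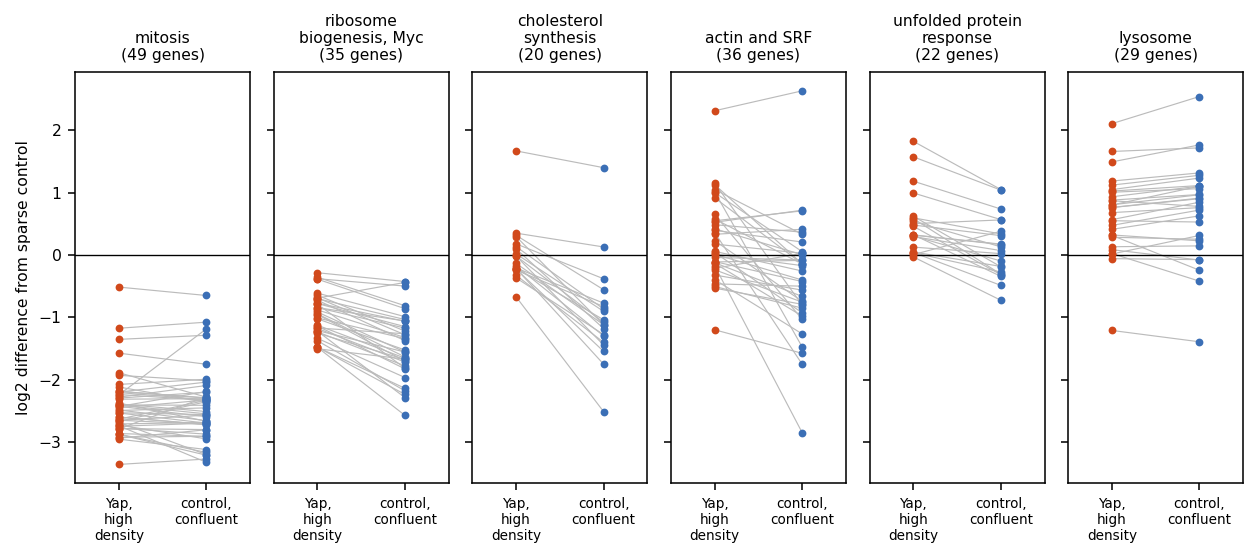
Log2 difference from sparse control for every measured gene of 6 lists, in Yap cells on the left of each panel and in confluent control on the right, with a grey line per gene. Mitosis genes lie low on both sides (medians -2.49 and -2.51), cholesterol synthesis genes lie near 0 only on the Yap side (medians -0.08 and -1.10), and lysosome genes lie high on both (medians 0.76 and 0.85).

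The factor Atf4 induces many genes of amino acid stress. Of 28 measured, 19 were lower and 5 higher in Yap cells than in sparse control (median -0.55), and 10 of 11 density-dependent members were at the confluent level. Mthfd2 and Shmt2, enzymes of mitochondrial folate metabolism, fell by 2.05 and 1.92, Cth, which makes cysteine, by 1.74 and the secreted protein Stc2 by 1.77.

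The unfolded protein response raises chaperones and clearing enzymes when proteins misfold in the endoplasmic reticulum. Of its 22 measured genes, 16 were higher and 0 lower than in sparse control (median 0.39, confluent control 0.10). Set against confluent control, 15 rose and 1 fell, beside 11.7% and 14.5% of all genes. Dnajb9, a cochaperone of the endoplasmic reticulum, read 10.15 and 10.13 in Yap cells, 9.31 and 9.42 in confluent control, and 8.26 and 8.36 in sparse control (difference from sparse control 1.82, adjusted p = 8.89e-09). Xbp1, the transcription factor that is spliced when the endoplasmic reticulum is stressed, read 12.28 and 12.33 in Yap cells, 11.73 and 11.81 in confluent control, and 10.75 and 10.71 in sparse control. These were the 2 density-dependent members, and both were past the confluent level. Syvn1, a ubiquitin ligase that clears misfolded proteins, rose by 1.18 and the cochaperone Dnajc3 by 1.0.

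Of 19 promoters of this list, 8 held the ER stress element, CCAAT and CCACG with 9 bases of any kind between them, on either strand (42.11%), against 0.13% of all 14452. That of Syvn1 (chr19:6046326-6046575, plus strand) is shown with the element in capitals.
Syvn1: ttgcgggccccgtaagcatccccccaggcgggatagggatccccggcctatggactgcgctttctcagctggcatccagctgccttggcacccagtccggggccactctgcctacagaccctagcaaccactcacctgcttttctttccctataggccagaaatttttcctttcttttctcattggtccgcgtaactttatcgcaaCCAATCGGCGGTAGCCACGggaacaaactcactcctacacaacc

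Growth arrest genes are those that fibroblasts raise when they stop dividing. Of 32 measured, 23 were higher and 4 lower in Yap cells than in sparse control (median 0.91, confluent control 1.32), and 16 of 20 density-dependent members were between. Ccng2, a cyclin of arrested cells, read 9.11 and 9.20 in Yap cells, 10.06 and 10.02 in confluent control, and 6.60 and 6.74 in sparse control. Gas6, a ligand of receptor kinases, read 9.88 and 9.94 in Yap cells, 11.36 and 11.38 in confluent control, and 8.11 and 8.03 in sparse control. Both lay between with no overlap. The 4 that fell, named after their values were seen, were Ccng1 (-0.97), Cdkn1a, a CDK inhibitor (-0.50), Btg2 (-0.46) and Plagl1 (-0.28).

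Of 22 collagens, 17 were higher and 0 lower than in sparse control (median 0.71, confluent control 0.87). Col3a1, a fibrillar collagen, read 13.38 and 13.43 in Yap cells, 14.05 and 13.999 in confluent control, and 11.78 and 11.72 in sparse control. Col6a1 (1.59) and Col5a3 (1.58) lay between as well, and Col16a1 (1.08) was at the confluent level (1.03). Of 40 matrix glycoproteins and proteoglycans, 27 were higher and 5 lower (median 0.68, confluent control 0.94), and 3 were lower without the first Yap array. Ogn, the proteoglycan osteoglycin, read 10.68 and 10.72 in Yap cells, 10.66 and 10.79 in confluent control, and 7.94 on both sparse arrays. Its Yap and confluent arrays overlapped. Lum, the proteoglycan lumican, and Postn, periostin, named after their values were seen, were further from the confluent level. Lum differed from sparse control by 0.20 and was not called, with a density step of 3.42, and Postn rose by 1.46 with a density step of 4.97.

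Among 24 genes of matrix remodelling 14 were higher and 2 lower, and 1 was lower without either Yap array or the second sparse array. Reck, an inhibitor of matrix proteases, rose by 2.52 (density step 3.15), and the proteases Mmp14 and Plat rose by 1.97 and 1.88 and were at the confluent level, as was Pcolce, which helps procollagen processing (1.44). The density-dependent members of this list at the sparse level were Adamts1 and Timp1. Lysosome genes were close to confluent control. Of 29, 22 were higher and 1 lower than in sparse control (median 0.76, confluent control 0.85), and 10 of 11 density-dependent members were at the confluent level. Compared with confluent control, 3 of the 29 were called higher and 7 lower, beside 11.7% and 14.5% of all genes. Lamp2, a lysosomal membrane protein, read 11.83 and 11.82 in Yap cells, 12.09 and 12.10 in confluent control, and 10.35 and 10.31 in sparse control. The protease Ctso, the proton pump subunit Atp6v0d1 and the peptidase Tpp1 rose by 2.11, 1.66 and 1.19. The 1 that fell was Gusb (-1.21), also at the confluent level.

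**Figure D4:**
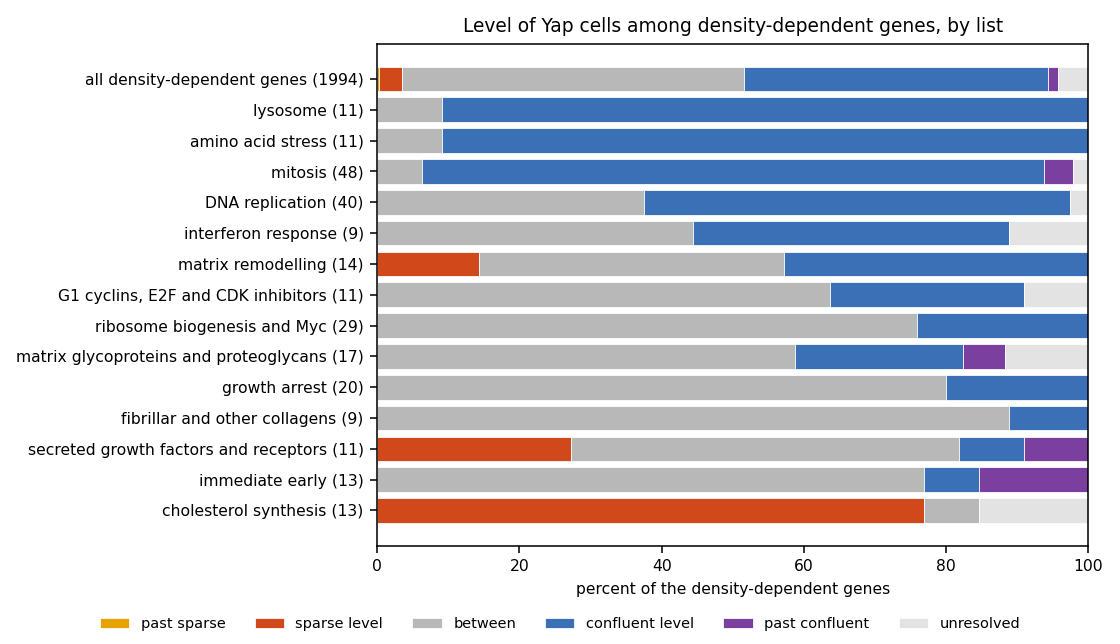
Percent of density-dependent genes in each class of Yap level, for lists with at least 9 such genes and for all 1994 genes (top bar), with the number of genes in brackets. Lysosome and amino acid stress genes (10 of 11 each) and mitosis genes (42 of 48) were mostly at the confluent level, growth arrest genes (16 of 20) between, and cholesterol synthesis genes (10 of 13) at the sparse level.

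At the confluent level beside the lists stood Aldh6a1, an enzyme of valine breakdown, C1ra, which encodes a complement protease, Fcgrt, a receptor that recycles antibodies, and Trp53inp2, which acts in autophagy. Trp53inp2 read 10.70 and 10.74 in Yap cells, 10.72 on both confluent arrays, and 8.15 and 8.10 in sparse control. Calml4 and Tmem53 rose by 2.54 and 2.51. Cdca5, which keeps sister chromatids together, fell by 2.81 (density step -3.02).

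Among the 28 genes past the confluent level, 22 rose and 6 fell with density. Slurp1 read 11.51 and 11.57 in Yap cells, 9.70 and 9.81 in confluent control, and 8.49 and 8.62 in sparse control. Ccl9 read 9.77 and 9.79 in Yap cells, 8.72 and 8.62 in confluent control, and 6.76 and 6.67 in sparse control. In both the Yap arrays were the highest of these 3 groups. Tgfb3, a growth factor of the TGF-beta family, rose by 2.15 (density step 1.20) and Mgst1, a glutathione transferase, by 1.89 (density step 1.08). Gpt2, which makes alanine, and Ccnb1ip1 fell by 1.46 and 1.49, with Yap minus confluent control at -0.41 and -0.45.

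Signalling genes split. Of 30 immediate early genes, 13 were higher and 8 lower in Yap cells than in sparse control (median -0.03), beside 22.2% and 20.2% of all genes. Egr1, a zinc finger factor induced by growth factors, read 11.27 and 11.34 in Yap cells, 10.54 and 10.62 in confluent control, and 8.71 and 8.66 in sparse control, and Egr2 rose by 2.58. Both were past the confluent level. Fosl1, a partner of Jun, fell by 2.0 and Zfp36l1, which binds unstable mRNAs, rose by 1.40, and both lay between. Among 17 genes of ERK feedback, 10 were lower and 4 higher (median -0.44). The ETS factors Etv5 and Etv4, which ERK signalling induces, fell by 1.69 and 1.5 and lay between, and Spred2, an inhibitor of the pathway, and Phlda1 fell by 1.28 and 0.60. Dusp6 of the same list was at the sparse level, as given above.

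Of 40 secreted growth factors and receptors, 13 were higher and 9 lower (median -0.01), beside 22.2% and 20.2% of all genes. Fewer were lower without the second Yap array. Igfbp4, which binds insulin-like growth factors, rose by 1.99 (density step 3.28) and the receptor Pdgfrb by 1.21 (density step 1.80), while Inhba, an activin subunit, fell by 0.94. The members at the sparse level were Rspo2, Fgf2 and Bdnf. Of 26 inflammatory chemokines and cytokines, 5 were higher and 2 lower, or 5 lower with arrays centred on their medians. Csf1, the macrophage growth factor, read 10.54 and 10.60 in Yap cells, 9.91 and 9.94 in confluent control, and 10.09 and 10.07 in sparse control. Cx3cl1 rose by 0.57 and Cxcl10 fell by 0.95, with uneven sparse arrays (6.75 and 6.16). Ccl2 and Ccl7 of this list were at the sparse level and Ccl9 past the confluent level.

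Of 30 interferon response genes, 16 were higher and 1 lower in Yap cells than in sparse control, or 2 lower without the first sparse array (median 0.39, confluent control 0.54). Gbp2, an interferon-induced GTPase, rose by 1.68, and Ifi35 and Igtp by 1.25 and 1.15, while Ifit2 fell by 1.25. Of 29 hypoxia and glycolysis genes, 11 were higher and 10 lower, beside 22.2% and 20.2% of all genes. Pfkfb3, which speeds glycolysis, was at 0.95, Bnip3 at 0.93, Adm at 0.58 and Ndrg1 at 0.54. Of 18 genes of the circadian clock, 10 were higher and 3 lower (5 lower with arrays centred on their medians), led by Per3 (1.24) and Dbp (0.98), which lay between. Bhlhe40, a repressor of the clock, rose by 0.89 and did not depend on density (-0.14, under 2-fold), and Per2 rose by 0.75. Of 25 focal adhesion and integrin genes, 7 were higher and 4 lower, near the shares of 22.2% and 20.2% over all genes. Among them were Cav1 of caveolae (0.71), Pxn, paxillin (0.71), Ilk, integrin-linked kinase (0.41), and Tes, testin (-1.23).

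**Figure D5:**
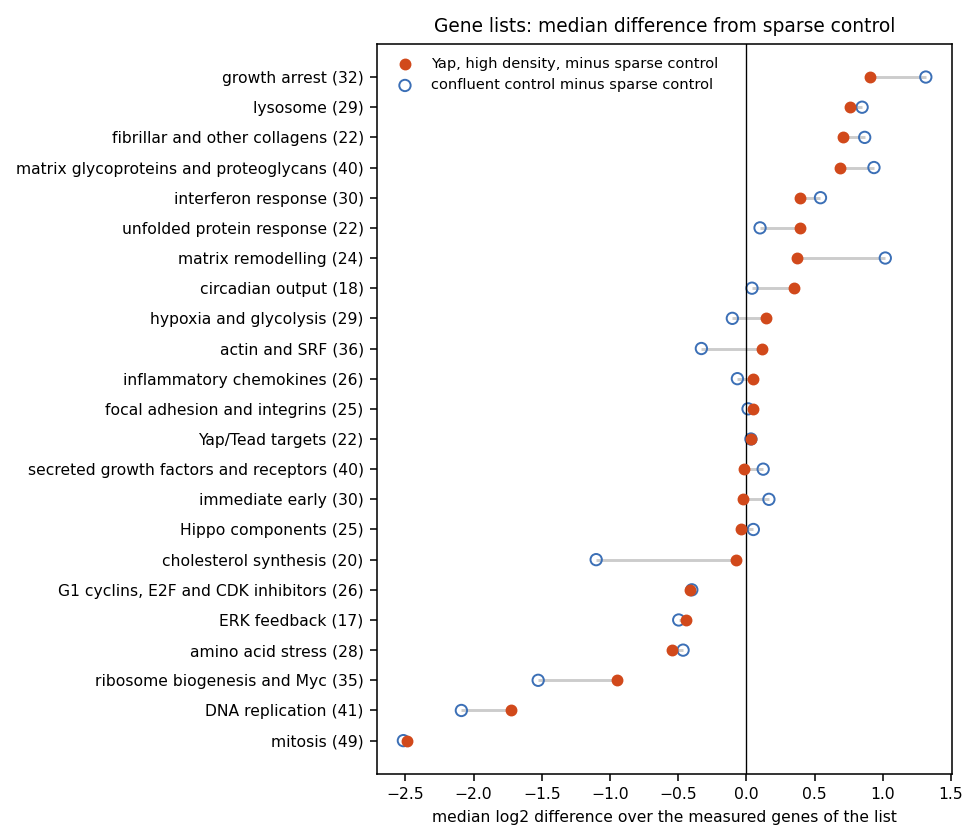
Median log2 difference from sparse control over the measured genes of each list (number in brackets), filled points for Yap cells and open points for confluent control. The points lie together for mitosis and lysosome genes, and furthest apart for cholesterol synthesis (-0.08 and -1.10).

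Markers were also read as a check of the cells. Of 12 fibroblast markers, 7 were higher and 2 lower in Yap cells than in sparse control. Their differences ran from -0.85 to 2.23 (the receptor Pdgfra), with fibronectin (Fn1) at 1.42 and Thy1 at 1.32. Their summed linear intensity was 122470 and 123924 on the Yap arrays and 100978 and 102973 on the sparse arrays. Sums for macrophage, endothelial and muscle markers were at most 896 on any of these arrays. The adipocyte sum was 3297 and 3172 in Yap cells against 2311 and 2324 in sparse control, mostly Lpl, lipoprotein lipase (11.56 and 11.501 against 11.01 and 11.03), with Plin4 rising by 1.01. The epithelial sum was 2257 and 2198 in Yap cells against 3063 and 3313 in sparse control, with the keratin Krt14 at -0.74 and Krt8 at -0.24, and Epcam at 0.71. Single macrophage markers were called, with Lyz2 at 0.60, Cd68 at -0.38 and Cd14 at -0.28. The endothelial markers Flt1 and Egfl7 were called at 0.34 and 0.25, and the calls of Cd14, Krt8, Flt1 and Egfl7 were each lost without 1 or another of the 4 arrays, and no muscle marker was called, with Tnnt1 at 0.32 and Tnni1 at 0.21.

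Yap and Tead2-VP16 cells, at the same labelled density, differed in a number of genes that depended on the fit. Of 18193 genes, 2.02% were called, 170 higher (0.934%) and 197 lower (1.08%) in Yap cells, and 6 (0.033%) and 2 (0.011%) of these by at least 2-fold. Among the 64 genes at the sparse level, 15 were higher and 1 lower in Yap than in Tead2-VP16 cells. The Yap arrays compared here also formed that class, so nothing is read from this split. Fhl1 (1.18), Adamts1 (0.92) and Timp1 (0.43) were higher in Yap cells and Cacna1g (-0.62) lower, while Ccl2 (-0.05), Id1 (-0.06) and Rspo2 (0.09) were not called. Of the 20 cholesterol synthesis genes, 7 were higher and 0 lower in Yap cells, with a median of 0.26 against -0.02 over all genes. Only 39 genes were called in each direction when the fit held just the 4 arrays compared, and between 33 and 107 in a direction without 1 array. Over genes above the median level 402 were higher and 584 lower, and with a variance trend and robust prior 439 and 619.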

How the data were processed

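Mouse NIH3T3 RNA was measured on 12 Affymetrix arrays, 2 for each of 6 groups taken from the sample titles. The deposited table holds intensities that the authors summarised with RMA, per the submitters' processing notes, whose version is not given in the sources used here. Its values ran from 3.77 to 25980, with array medians of 51.9 to 53.7, so they were read as linear and log2 was taken. Which of RMA's own steps were run is not recorded, and RMA output is usually on the log2 scale. The number of arrays limits the precision, and 0 columns belonged to no sample.

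Of 45101 probe sets, 64 were controls, 34945 had 1 gene symbol in the platform annotation, 932 several and 9160 none. Entrez identifiers matched for 34741, which changed 0 symbols. Each of 18193 genes was read on its probe set with the highest mean over 12 arrays (9010 genes had more than 1). limma 3.58.1 in R 4.3.3 fitted the means of all 6 groups together (6 residual and 3.45 prior degrees of freedom). Among the 6 were cells labelled Tead2-EnR at 30% confluency and Tead2-VP16 cells at complete confluency. These entered the choice of probe set and that fit but are not compared here. Standard errors, intervals and adjusted p-values are from that fit, after it was tested on simulated data. Folds are 2 to the power of the log2 difference. Plots used matplotlib 3.10.9 (Python 3.11.15). Same-numbered replicates did not deviate together (correlations from -0.061 to 0.101 over 15 pairs of groups), so the numbers were not treated as pairs.

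The comparison, the 29 gene lists (769 entries, 736 measured, matched by symbol) and the rules were chosen with earlier results of these data known. Genes named are the 12 largest rises and falls, the 8 largest density steps up and down in the sparse-level and confluent-level classes, the 4 most extreme in each direction past either level, Yap1, Tead2, Ccn1, Ccn2 and Ankrd1, up to 4 called members of each list by adjusted p, and the 4 largest rises and falls against Tead2-VP16 cells. Picks by size of difference left out unnamed clones and genes with neither group mean above the median gene (for the classes, neither control mean). The 12 rises and falls also had to be called, at least 2-fold, and without overlap between arrays. The sparse-level cholesterol genes and members said to be named after their values were seen fall outside this rule. Promoters are the 250 bases before the gene start in RefSeq on GRCm38.p6, found by symbol for 14452 measured genes and searched for 7 motifs, with a match at any of a gene's listed starts counted. Alternatives were other probe-set rules, filters, variance and scaling settings, bands, density steps, a replicate block, and leaving out each array.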

Additional observations from a re-analysis of the deposited data

Results flagged for a closer look

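Yap and Tead2-VP16 cells carried the same density label, so the difference between their changes from sparse control could be tested directly with limma. The 8 genes given here were chosen as the largest called rises and falls in that contrast, under the filters on clones and level given above. Other genes named above were also called in it, among them Fhl1 (1.18) and Acta2 (-0.31). Values are log2 differences. Slurp1, which encodes a small secreted protein, was higher in Yap cells by 1.43 ± 0.06 (SE, adjusted p = 1.62e-05), with changes from sparse control of 2.99 in Yap cells and 1.56 in Tead2-VP16 cells. Ogn, the proteoglycan osteoglycin, was higher by 1.26 ± 0.06 (adjusted p = 1.62e-05), with 2.76 in Yap cells and 1.51 in Tead2-VP16 cells. Both genes rose in both kinds of cell. C1qtnf3, a secreted relative of complement C1q, was at 1.29 ± 0.11 (adjusted p = 0.000779), with -1.05 in Yap cells and -2.34 in Tead2-VP16 cells. Golt1b, a protein of Golgi transport, was at 1.26 ± 0.16 (adjusted p = 0.00474), with -0.56 in Yap cells and -1.82 in Tead2-VP16 cells.

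The other 4 were lower in Yap cells. Lcp1, an actin-bundling plastin, was at -1.29 ± 0.17 (adjusted p = 0.00602), with 0.48 in Yap cells and 1.78 in Tead2-VP16 cells. Mycn was at -1.11 ± 0.08 (adjusted p = 0.000268), with 3.81 in Yap cells and 4.92 in Tead2-VP16 cells, on the 1 of its probe sets that changed. Clu, the secreted chaperone clusterin, was at -0.90 ± 0.07 (adjusted p = 0.000466), with 0.09 in Yap cells and 0.99 in Tead2-VP16 cells. Cdc42ep1, an effector of the GTPase Cdc42, was at -0.86 ± 0.06 (adjusted p = 0.000268), with 0.09 in Yap cells and 0.95 in Tead2-VP16 cells.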

How the results depend on the processing

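The replicate number says only which array of a group is meant. With a replicate block, 4028 genes were higher and 3664 lower in Yap cells than in sparse control, 621 and 583 by 2-fold, and 66 density-dependent genes were at the sparse level; no count over all genes moved by over 1.5 times, and among named genes the calls of Timp1 and Lcp1 were lost (adjusted p = 0.0608 and 0.0606). Leaving out 1 array at a time gave 3429 to 3719 genes higher and 3151 to 3493 lower in Yap cells than in sparse control, and 1395 to 1652 higher than in confluent control. It left 55 to 73 genes at the sparse level, 710 to 881 at the confluent level and 77 to 258 unresolved. Against Tead2-VP16 cells it called 43 to 107 genes higher and 33 to 81 lower in Yap cells. That contrast moved most: 402 higher and 584 lower over genes above the median level, 439 and 619 with a variance trend and robust prior, 39 and 39 with only the arrays compared, and 506 higher over every probe set. Testing every probe set raised the counts by construction, to 7784 higher and 7032 lower in Yap cells than in sparse control (1142 and 1125 by 2-fold), 9096 and 8392 in confluent minus sparse control, and 3644 and 4114 in Yap minus confluent control. Of 3838 density-dependent probe sets, 115 were at the sparse level, 1460 at the confluent level, 1854 between and 359 unresolved. Unresolved genes numbered 11 above the median level, 52 with probe sets averaged per gene (3 past the sparse level) and 55 with the variance trend. With arrays centred on their medians, 6341 genes were lower in confluent than in sparse control, and 37.3% of calls in that contrast and 54.7% in Yap minus confluent control were higher, against 53.4% and 44.6% as deposited. A band of 0.3 gave 28 genes at the sparse level, 311 at the confluent level, 48 past the confluent level and 327 unresolved; a band of 1 gave 584, 1279, 5 and 5, with 117 between. A density step of 1.5-fold gave 4219 genes, with 491 at the sparse level, 2269 at the confluent level, 12 past the sparse level, 58 past the confluent level and 200 unresolved; a step of 4-fold gave 392, with 7, 142, 0, 3 and 15, and 225 between. With that averaging, Yap minus sparse control turned to 0.0867 for Ccn1 and to -0.0113 for Egfl7. The cause of these changes was not tested beyond the number of features or arrays. Of 160 genes, 12 lost their call and 5 gained one under some setting, and of 58 list counts 11 fell and 7 rose by over 1.5 times.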
